A study of Mus musculus with 13 samples.

Results

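The genes of the major histocompatibility complex (MHC) and of antigen presentation were examined in ChIP-seq peak lists of 4T1 cells. They were taken by name: every symbol starting with H2-, together with B2m, Tap1, Tap2, Tapbp, Psmb8, Psmb9, Psmb10, Nlrc5, Ciita, Cd74, Erap1 and Cd274. Of 18562 genes with a peak in any of the 6 lists, 46 belonged to this set, 36 of them H2- genes. Nlrc5, the class I transactivator, and Cd74, the class II invariant chain, had no entry in any list, nor did 18 of 50 H2- symbols of RefSeq, among them H2-Ab1, H2-DMb1, H2-DMb2 and H2-Oa.

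4T1 is a metastatic line from a spontaneous mammary tumor of a BALB/cJ mouse, grown here in culture without further treatment. H3K27me3, a repressive histone mark, and H3K4me3, a mark of active promoters, were measured in sg-Ctrl cells, which carry a non-targeting CRISPR guide, and in Nup210 KO cells, the single knockout clone N13. NUP210, a protein of the nuclear pore complex (NPC), and NPC proteins recognised by a shared antibody were measured in sg-Ctrl cells only. Each list came from 1 library, so no difference between sg-Ctrl and KO has a replicate check, and clone and knockout cannot be told apart. Intervals below are 95% intervals of counting error only.

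MHC class I molecules carry peptides from inside the cell to its surface, where CD8 T cells and natural killer cells read them. The proteasome with its inducible subunits Psmb8, Psmb9 and Psmb10 cuts the peptides, Tap1 and Tap2 pump them into the endoplasmic reticulum, Erap1 trims them, Tapbp helps to load them, and B2m is the light chain that all classical class I molecules share. Class II molecules present peptides from outside and are made mainly by professional antigen presenting cells under the control of Ciita. Class Ia genes are the classical heavy chains, class Ib genes the less polymorphic ones of the Q, T and M clusters.

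Values of the deposited lists were set side by side as scaled reads, the reads of a peak divided by the size of its library relative to the IgG control, per kb of peak. The KO libraries were deeper, by 1.27 times for H3K4me3 and 3.16 times for H3K27me3, and sg-Ctrl and KO shared their IgG control, since all 575 H3K4me3 and all 832 H3K27me3 peaks of identical position had identical IgG reads. The 6 epithelial markers all had H3K4me3 at their start in both libraries, whereas 1 of 10 leukocyte and antigen presenting cell markers, Cd68, did. H3K4me3 at the start of Nup210 was 885 reads in sg-Ctrl and 913 in KO, which does not check the knockout. The lists' gene positions match GRCm38, a C57BL/6J genome, while BALB/cJ carries another MHC haplotype. Reads of polymorphic or duplicated H2- genes are therefore uncertain in both cell types, in particular at H2-D1 and H2-L, H2-Q6 and H2-Q8, H2-Q7 and H2-Q9, and H2-T22 and H2-T9, whose peaks were the same.

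Promoters of genes with H3K4me3 were searched for motifs known from MHC genes, and 6 are shown as the 250 bases before the start in RefSeq's GRCm38.p6. Capitals mark the motifs searched on both strands: the interferon-stimulated response element core (2 GAAA runs with NN between them), the gamma-activated site (TTCNNNGAA), the Y box (CCAAT) and X2 box (TGACGC or TGACGT) of the enhanceosome that Nlrc5 and Ciita bind, a TATA box (TATAAA) and the class I kappa B site, which is the capital run nearest the 5′ end in H2-K1, H2-D1 and H2-Q6. B2m and H2-T23 are shown for their interferon element, H2-K1, H2-D1 and H2-Q6 for their kappa B site, and Tap1 for the window it shares with Psmb9, which starts in the opposite direction. H2-T23 also had the lowest H3K4me3 ratio of KO to sg-Ctrl per kb of the densest peak, though not in total reads.

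B2m, chr2:122147437-122147686, plus strand: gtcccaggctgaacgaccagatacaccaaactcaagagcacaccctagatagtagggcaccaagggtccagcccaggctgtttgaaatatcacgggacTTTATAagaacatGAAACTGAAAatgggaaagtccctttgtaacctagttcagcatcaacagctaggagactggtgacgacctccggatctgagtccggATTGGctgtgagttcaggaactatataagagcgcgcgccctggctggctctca
Tap1, chr17:34187306-34187555, plus strand: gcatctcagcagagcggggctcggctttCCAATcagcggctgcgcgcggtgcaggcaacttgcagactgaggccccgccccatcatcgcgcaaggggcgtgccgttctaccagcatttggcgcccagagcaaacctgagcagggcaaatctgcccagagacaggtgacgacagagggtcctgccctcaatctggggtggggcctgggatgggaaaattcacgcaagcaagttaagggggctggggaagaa
H2-K1, chr17:34000334-34000583, minus strand: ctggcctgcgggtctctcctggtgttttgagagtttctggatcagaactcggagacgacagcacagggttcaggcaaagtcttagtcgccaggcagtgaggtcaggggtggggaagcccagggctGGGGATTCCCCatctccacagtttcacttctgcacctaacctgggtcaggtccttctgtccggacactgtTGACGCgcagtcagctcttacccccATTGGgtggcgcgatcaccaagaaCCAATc
H2-D1, chr17:35262844-35263093, plus strand: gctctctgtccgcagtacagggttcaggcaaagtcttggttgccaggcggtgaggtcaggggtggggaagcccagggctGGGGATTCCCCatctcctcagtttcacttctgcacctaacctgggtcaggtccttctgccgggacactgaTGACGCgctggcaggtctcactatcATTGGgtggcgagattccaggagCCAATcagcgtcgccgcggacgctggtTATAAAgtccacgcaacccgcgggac
H2-Q6, chr17:35424600-35424849, plus strand: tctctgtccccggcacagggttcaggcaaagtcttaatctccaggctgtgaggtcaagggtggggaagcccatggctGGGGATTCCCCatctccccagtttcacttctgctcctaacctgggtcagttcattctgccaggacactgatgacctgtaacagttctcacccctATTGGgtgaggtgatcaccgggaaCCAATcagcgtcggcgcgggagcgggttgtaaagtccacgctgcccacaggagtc
H2-T23, chr17:36032702-36032951, minus strand: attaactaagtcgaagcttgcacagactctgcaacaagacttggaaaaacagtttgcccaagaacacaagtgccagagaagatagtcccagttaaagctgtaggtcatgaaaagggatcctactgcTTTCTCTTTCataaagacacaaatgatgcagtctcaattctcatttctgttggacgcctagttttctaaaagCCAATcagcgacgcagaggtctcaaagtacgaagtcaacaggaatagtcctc

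Of the 29 genes with an H3K4me3 peak, 18 had a matching promoter sequence. The kappa B site was in 3 of these 18 windows and in 10 of 32851 promoter windows of all genes (0.0304%). The motifs were chosen as known from MHC genes, so a higher share in this set is not independent support. The Y box was in 13 of 18 (33.8% of all windows), the X2 box in 6 (11.9%), the interferon element core in 3 (2.98%), the gamma-activated site in 2 (7.02%) and the TATA box in 4 (12.4%). The windows of Tap1 and Psmb9 overlap, and their Y box is the same site, counted for both genes. Cd274, Erap1, H2-DMa and Psmb10, 4 of the 18, held none of these motifs. No base lay in more than 1 kind of motif. In sg-Ctrl 17 of the 18 windows lay wholly inside an H3K4me3 peak, H2-Q6 being the exception, and in KO 17 did, H2-Q7 having none. A match of letters is a description and not a bound site. Only the exact letters given above were searched, so a window without a match may still hold a variant of the motif. This holds for the interferon element of the class I genes too.

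All 46 genes carried H3K4me3 or H3K27me3, beside 95.1% of the 18562 genes in any list, since most entries of the lists are of these marks. All but 1 carried a single mark, beside 90.3% of all genes. H3K4me3 at the start was listed for 29 in sg-Ctrl, beside 67.1% of all 18562 genes, and for 26 in KO, beside 67.0%. H3K27me3 over the gene body, by any overlap, was listed for 14 in sg-Ctrl, beside 26.8% of all genes. In KO it was listed for 18, beside 27.6%. The classes divided by mark. All 8 class I processing genes and all 3 class Ia genes had H3K4me3 and none had H3K27me3 in either library. The 24 class Ib genes fell into 12 with H3K4me3, in the Q and T clusters and at H2-M3, and 12 others with H3K27me3 in KO, 11 of them also in sg-Ctrl. These were H2-Q1, H2-T3 and the listed M cluster genes other than H2-M3. Of the 7 class II genes in any list, 6 had H3K27me3 in KO and 3 in sg-Ctrl, while H2-DMa and Ciita had H3K4me3. Class II genes in no list, such as Cd74 and H2-Ab1, are not in this count. Ciita was the gene with both marks, its H3K27me3 in KO alone.

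**Figure D1:**
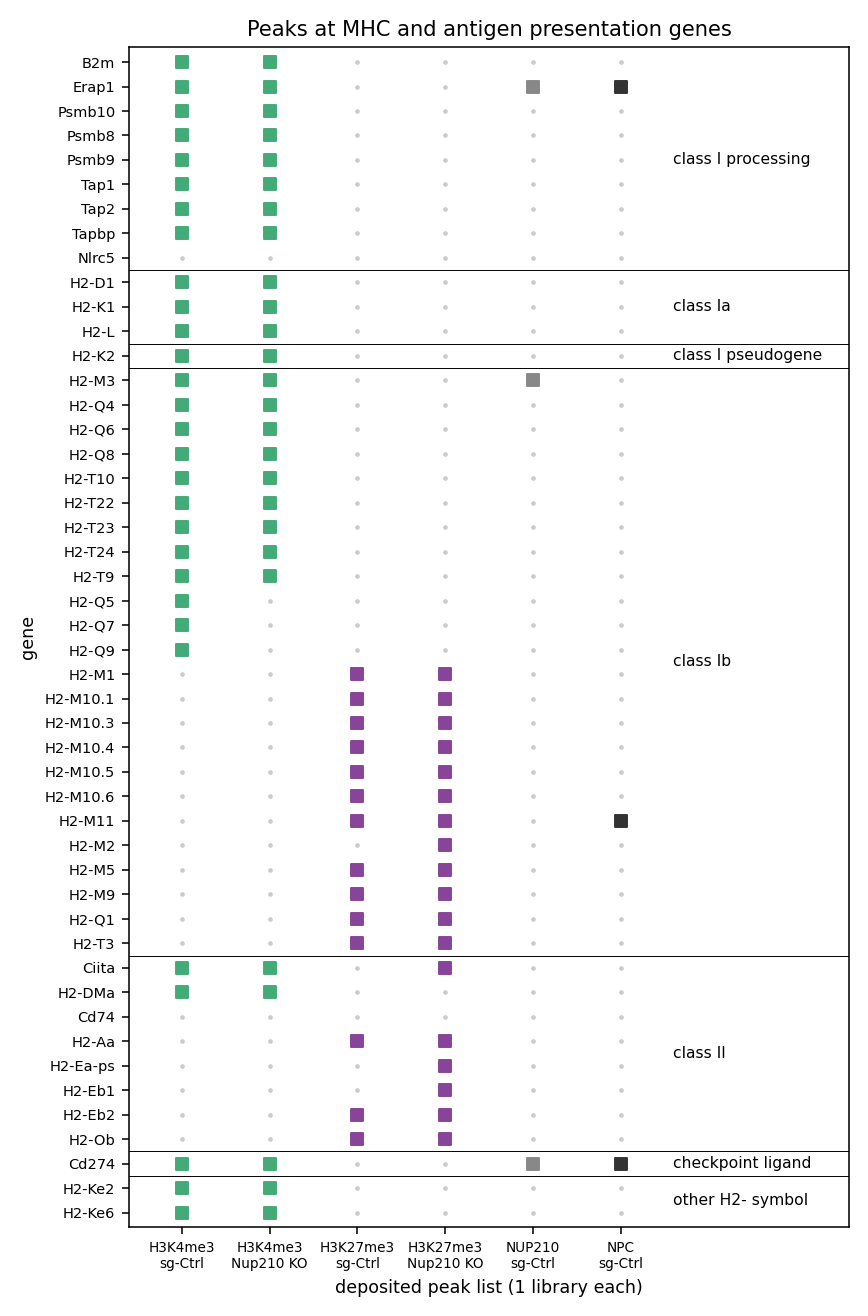
Peaks in the 6 deposited lists (columns) at the 46 genes, with Nlrc5 and Cd74, which are in no list, grouped by class (rows). A square marks a listed gene, green for H3K4me3, purple for H3K27me3, grey for NUP210 and black for NPC; the 24 class Ib genes divide into 12 with H3K4me3 and 12 with H3K27me3.

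For H3K4me3, 3 class Ib genes had a peak in sg-Ctrl alone, against 2.02% of the 12693 genes with H3K4me3 in either list, and 0 genes had one in KO alone (1.89%). H2-Q5 had 48 reads (35.4 to 63.6) over 0.6 kb, and H2-Q7 and H2-Q9, both at chr17:35438801-35439800, had 83 reads (66.1 to 103), all with 0 IgG reads. These were among the weakest peaks, at the 1.06 and 4.01 percentile of reads in sg-Ctrl. Their levels of 75.4 and 78.2 scaled reads per kb would stand above 5.02% and 5.30% of the peaks listed in KO.

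Among the processing genes, B2m had the highest H3K4me3 in sg-Ctrl. It had 4792 sg-Ctrl reads (903 per kb after scaling) and 5319 KO reads (658), and its log2 ratio, KO over sg-Ctrl throughout, was -0.46 (-0.51 to -0.40). Over all 12196 genes with H3K4me3 in both lists, genome-wide, the median log2 ratio was -0.50, and over the genes of chromosome 2, which holds B2m, it was -0.42. Psmb10, the inducible subunit encoded on chromosome 8, was the processing gene with the highest ratio. It had 2619 reads (726 scaled reads per kb) and 4975 (839), a log2 ratio of 0.21 (0.14 to 0.28), where the median of chromosome 8 was -0.36. That peak is also listed for a neighbour, the gene Ctrl (chymotrypsin-like), and the log2 ratio of Psmb10 was -1.02 when the deposited fold over IgG was compared, IgG reads being 24 in sg-Ctrl and 73 in KO.

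Tap1 and Psmb9, which start from a shared promoter, had 834 sg-Ctrl reads and 1377 KO reads. The peak was 2.0 kb wide in sg-Ctrl and 3.4 kb in KO, so that scaled reads per kb were 393 and 301, a log2 ratio of -0.39 (-0.51 to -0.26). Both values lie in the lower part of the genes with H3K4me3, at the 29.1 percentile in sg-Ctrl and the 30.8 percentile in KO. Tap2 had 383 and 550 reads over an equal 2.0 kb, with 0 IgG reads, a log2 ratio of 0.18 (-0.01 to 0.37). Psmb8 had 794 and 969 reads over an equal 2.2 kb, a log2 ratio of -0.06 (-0.20 to 0.08). Tapbp, whose peak is shared with Zbtb22, had 1521 and 2178 reads, a log2 ratio of -0.03 (-0.13 to 0.06). Relative to the median of all genes these 3 lay 0.68, 0.44 and 0.47 higher on the log2 scale. Erap1 had 1293 and 1494 reads over 2.6 and 3.6 kb and a log2 ratio of -0.61 (-0.72 to -0.50), below that median.

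Per kb of the densest peak, the class Ia genes differed from each other. H2-K1 had 576 sg-Ctrl reads (226 scaled reads per kb) and 836 KO reads (222), with a log2 ratio of -0.03 (-0.19 to 0.13). H2-D1, with H2-L at the same window, had 1300 reads in its densest sg-Ctrl peak and 3540 in the KO peak, or 471 and 279 scaled reads per kb, and a log2 ratio of -0.75 (-0.85 to -0.66). The sg-Ctrl cells had 2 peaks there, of 5.4 kb in all, and KO had 1 of 9.4 kb. The densest sg-Ctrl peak, chr17:35257201-35259800, ended before the gene's start, and with the peak nearest the start the log2 ratio was -0.10. Added over all peaks, scaled reads at H2-D1 were 2065 for sg-Ctrl against 2627 for KO, a log2 ratio of 0.35. At H2-K1 the log2 ratio was -0.03 with the peak nearest the start and 0.19 in total reads of all peaks. The order of H2-D1 against the typical gene and against H2-K1 thus depended on the peak used. The pseudogene H2-K2, whose peak is shared with AA388235, had 252 and 353 reads over an identical 1.2 kb and a log2 ratio of 0.14 (-0.10 to 0.38).

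Of the class Ib genes, H2-T23, which encodes the mouse Qa-1 molecule, had the lowest ratio per kb. It had 1877 reads (1793 to 1964) over 2.0 kb in sg-Ctrl and 2508 (2411 to 2608) over 4.8 kb in KO. Scaled reads per kb were 885 and 388, from the 85.2 percentile in sg-Ctrl to the 51.4 percentile in KO, a ratio of 0.438 and a log2 ratio of -1.19 (-1.28 to -1.10). It was the only 1 of 26 genes at or below 0.5 times sg-Ctrl, where 9.66% of all genes were, and 0 were at or above 2 times, where 0.525% were. Its total scaled reads were 1769 for sg-Ctrl against 1861 for KO, which gives a log2 ratio of 0.07, so the sign of the difference depended on whether reads were divided by the width of the peak.

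The other class Ib genes spanned a wide range of levels. H2-M3, which presents formylated peptides, had 1335 and 1958 reads, 524 and 519 scaled reads per kb and a log2 ratio of -0.02 (-0.12 to 0.09). H2-Q4 had 683 and 1015 reads and a log2 ratio of -0.04 (-0.18 to 0.11), and H2-T24 had 640 and 667 reads and 0.04 (-0.12 to 0.20). These 3 lay above the median of all genes per kb. H2-T22 and H2-T9 shared 1160 and 1375 reads, a log2 ratio of -0.60 (-0.72 to -0.49), and H2-T10 had 284 and 233 reads over an identical 1.2 kb, a log2 ratio of -0.63 (-0.89 to -0.38). The peak of H2-T10 had the same position in both lists, and the 575 H3K4me3 peaks of identical position had a median of -0.33. H2-Q6 and H2-Q8 were near the floor of the list, at 100 and 137 reads, with a log2 ratio of -0.70 (-1.08 to -0.31).

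Ciita, H2-DMa and Cd274 stood outside class I. Ciita had the fewest H3K4me3 reads of all 26 in either library, 39 sg-Ctrl reads and 74 KO reads over 0.6 kb with 0 IgG reads, a log2 ratio of 0.58 (0.00 to 1.18). Its level was at the 0.795 percentile in sg-Ctrl and the 3.09 percentile in KO. H2-DMa, which helps to load class II molecules, had 7398 and 5399 reads in a peak of 11.6 and 10.8 kb that it shares with Brd2, a log2 ratio of -0.70 (-0.75 to -0.65). Cd274, the checkpoint ligand PD-L1, had 2798 and 2855 reads in its densest peak, which Plgrkt shares, and a log2 ratio of -0.71 (-0.78 to -0.63). H2-Ke2 and H2-Ke6, which encode no MHC chain, had log2 ratios of -0.32 (-0.42 to -0.23) and -0.57 (-0.66 to -0.48) in peaks shared with Wdr46 and with Rxrb and Slc39a7. At H2-Ke6, where 2 sg-Ctrl peaks stood against 1 KO peak, the log2 ratio was 0.22 with the peak nearest the start and 0.14 in total reads of all peaks, so its sign depended on the peak used.

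**Figure D2:**
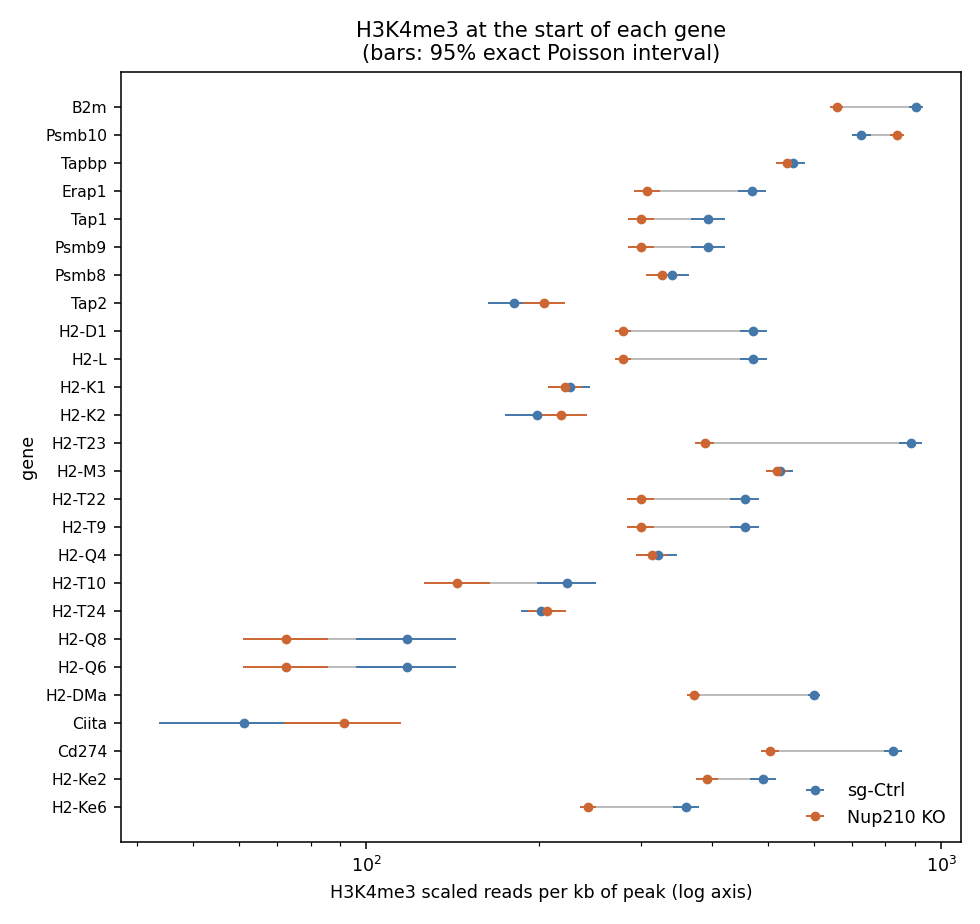
H3K4me3 at the start of the 26 genes with a peak in both lists (rows, by class), as scaled reads per kb of the densest peak on a log axis, in sg-Ctrl (blue) and Nup210 KO (orange), with 95% exact Poisson intervals of the reads. H2-T23 has the widest gap, 885 against 388, while H2-K1, H2-M3, Tapbp and Psmb8 have overlapping intervals.

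Per kb, the median H3K4me3 of the 26 genes lay near that of all genes. Their median log2 ratio was -0.42 (-0.35 over the 22 distinct sg-Ctrl peaks) beside -0.50 for all genes, and 14 of 26 lay above the median of all genes, which by construction splits all genes evenly. Total reads gave other values. With total reads of the chosen peak, the planned measure, the median log2 ratio was 0.16 beside -0.32 for all genes. Total reads of all peaks, used below, were added as a measure after seeing the data. Added over all peaks within 4 kb of the start, scaled reads were higher in KO for 17 of 26, beside 22.2% of all genes, and the median log2 ratio was 0.12 beside -0.33. Over the 22 distinct sg-Ctrl peaks, 14 (63.6%) were higher, with a median of 0.12. The shares above 0, here and below, hold for scaling by library size. Scaling by reads in shared peaks raises every gene alike, moving the per-kb median of all genes from -0.50 to -0.08. The shares were not counted under that scaling. H3K4me3 peaks covered more length in KO at 19 of the 26, beside 63.3% of all genes, with a median of 2.4 kb in sg-Ctrl and 3.4 kb in KO, against 3.8 and 4.2 kb for all genes. The deeper KO library moved with this width, and its part in it was not tested.

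By class, the 8 processing genes all lay above the median of all genes in total reads and 7 did per kb. Their median log2 ratio per kb was -0.22, with Tap1 and Psmb9, which share 1 peak, each counted. The 3 class Ia symbols, at 2 distinct peaks, had higher total reads in KO, as did 5 of 9 class Ib genes. Psmb10 (0.58), Ciita (0.58), Tap1 and Psmb9 (0.38) and H2-D1 (0.35) had the highest log2 ratios of total reads, and H2-DMa (-0.80), H2-T10 (-0.63) and Cd274 (-0.53) the lowest. Chromosome 8 as a whole had a median of 0.14 in total reads and 67.6% of its genes were higher in KO, so the Psmb10 value is high on a chromosome that is itself high. The medians of chromosomes 16 and 19, which hold Ciita and Cd274, were -0.09 and -0.23. B2m, at -0.195 in total reads, lay near the median of chromosome 2, -0.190. Erap1, at -0.14, lay above that of chromosome 13, -0.33.

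**Figure D3:**
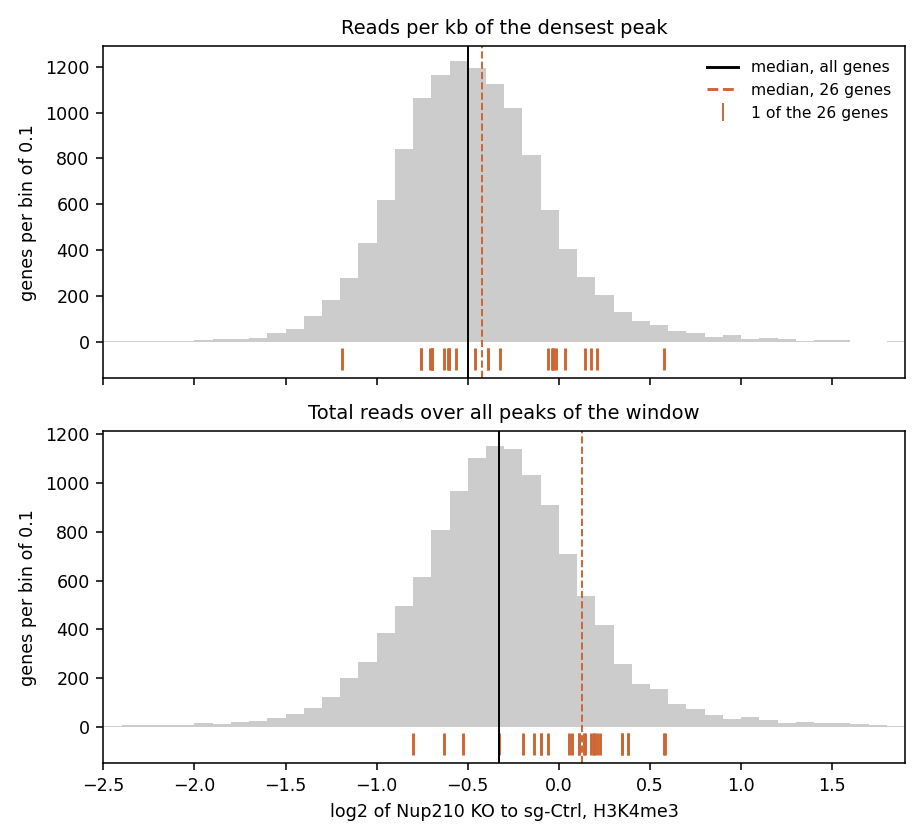
Log2 ratio of KO to sg-Ctrl for H3K4me3, per kb of the densest peak (top) and in total reads over all peaks of the window (bottom), for all genes (grey bars, genes per bin of 0.1, shown from -2.5 to 1.9) and for the 26 genes (orange ticks). The medians of all genes (black) and of the 26 genes (dashed) are -0.50 and -0.42 per kb, and -0.33 and 0.12 in total reads.

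Most of the set lies in a single stretch of chromosome 17, so its neighbours there were compared. Between the first and the last H2- gene, chr17:33938909-37483529, 102 genes had H3K4me3 in both lists, 20 of the set and 82 others. The 82 others had a median log2 ratio of total reads of -0.31, and 20 of them (24.4%) were higher in KO. The 21 genes of the set on chromosome 17, Tapbp included, had a median of 0.14, and 15 (71.4%) were higher. Genes that share a peak, in the set and among the neighbours, are each counted here. Without neighbours that share a peak with the set, the median of the other 76 was -0.32, and the 530 genes elsewhere on chromosome 17 had -0.26. Per kb the medians were close, at -0.39 for the set on chromosome 17, -0.40 for the 82 neighbours and -0.43 for the rest of the chromosome. The neighbours with the most extreme ratios per kb were 4833427F10Rik (-1.30), Ppp1r11 (-1.08) and Gtf2h4 (-0.91) at the low end, and Psors1c2 (1.05) and Atat1 (1.14) at the high end. The KO peak of Atat1, with 6069 reads, is also that of Mrps18b and Ppp1r10, whose ratio was -0.77, so the Atat1 value sets a sg-Ctrl peak of 725 reads against a KO peak that it shares with these neighbours.

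**Figure D4:**
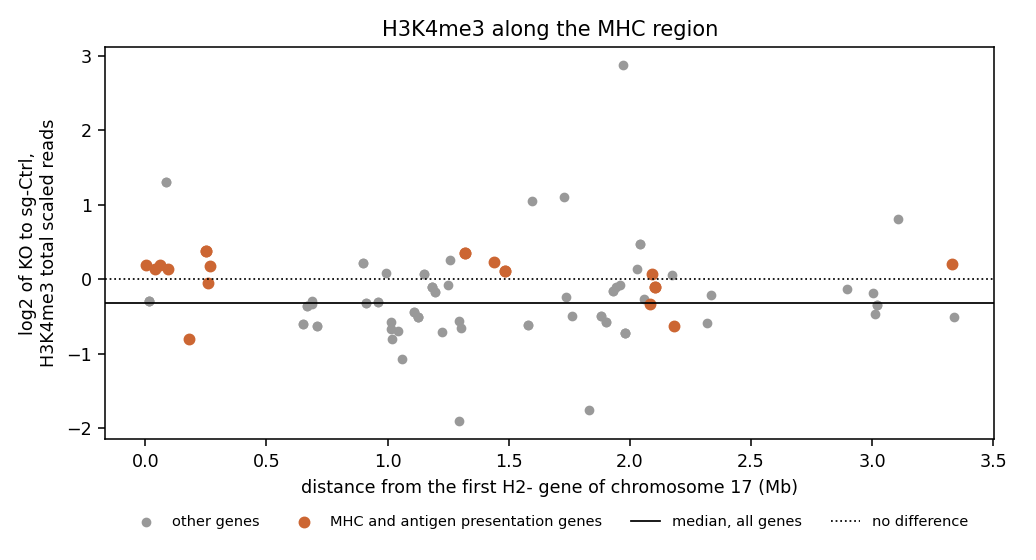
Log2 ratio of KO to sg-Ctrl in H3K4me3 total scaled reads for the 102 genes of the MHC region of chromosome 17, against the distance in Mb from its first H2- gene. With scaling by library size, the genes of the set (orange) lie mostly above 0, and H2-DMa at -0.80 is the lowest of them. The other genes (grey) lie mostly below 0, around their median of -0.31.

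H3K27me3 lay over the H2- genes in long stretches. Joined over both lists, 16 regions met genes of the set, 13 with peaks in both libraries and 3 in KO alone, beside 21.3% of all 10188 joined regions. No gene of the set had H3K27me3 in sg-Ctrl alone (3.97% of all genes) and 4 had it in KO alone (4.75%): Ciita, H2-Eb1, H2-Ea-ps and H2-M2. Covered length was 598 kb in sg-Ctrl and 822 kb in KO, a ratio of 1.37, where all regions together gave 1.19 and those of the MHC region of chromosome 17 gave 1.20. Without the region of H2-M2, described below, the other 15 covered 548 and 666 kb, a ratio of 1.22. Of the 13 regions in both libraries 9 were longer in KO, beside 55.3% of all such regions. In the MHC region of chromosome 17, 18 of 25 (72%) were. The KO library was 3.16 times deeper, and the part of this depth in the covered length was not tested.

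The class Ib M cluster carried the longest regions. H2-M10.3 and H2-M10.4 lay under 97 kb of sg-Ctrl peaks and 125 kb of KO peaks, at 35.2 and 36.4 scaled reads per kb and a log2 ratio of 0.05 (-0.01 to 0.11). H2-M10.5 and H2-M10.6 lay under 105 and 116 kb, with a log2 ratio of -0.05 (-0.10 to -0.00). H2-M1 and H2-M9 had 73 and 78 kb and -0.10 (-0.17 to -0.03), and H2-M11 had 27 and 39 kb and 0.13 (0.00 to 0.27). At H2-M10.1 the peak was identical in both lists, 47 kb, with 39.9 and 42.5 scaled reads per kb. H2-M5 was the only of the 13 regions that was shorter in KO, 67 against 54 kb. Over the gene itself the direction was opposite, since peaks covered 5.51% of H2-M5 in sg-Ctrl and 100% in KO. H2-M1 likewise went from 9.0% covered in sg-Ctrl to 100% in KO. Every other gene named in this paragraph was covered wholly in both lists. Across the regions named here the log2 ratio of density lay between -0.10 and 0.13.

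H2-M2, at the end of the cluster, was the exception. A KO peak of 156 kb, chr17:37479001-37635000, covered it together with neighbouring olfactory receptor genes, with 32549 reads, 2353 IgG reads and a fold of 5.17 over IgG. In sg-Ctrl, 3 separate peaks of 50 kb in all lay in that stretch, none of them on H2-M2, with 1232 reads and 879 IgG reads. Per kb of peak, 29.1 scaled reads in sg-Ctrl stood against 78.0 in KO, and the log2 ratio was 1.42 (1.34 to 1.51). It was the densest KO region of the 16. Both libraries were set against the same IgG control here as elsewhere.

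H2-Q1 and H2-T3 carried H3K27me3 outside the M cluster. H2-Q1 had 17 kb in sg-Ctrl and 36 kb in KO, at 60.0 and 55.8 scaled reads per kb, and H2-T3 had 65 and 67 kb at 45.0 and 51.5, a log2 ratio of 0.19 (0.13 to 0.26).

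The class II genes had shorter regions. H2-Ob and H2-Aa each had a peak of identical position in both lists, 19 and 12 kb, with log2 ratios of 0.02 (-0.14 to 0.18) and -0.18 (-0.36 to 0.01), where the 832 peaks of identical position had a median of -0.18. These peaks covered 27.2% of H2-Ob and 15.4% of H2-Aa. Each gene also had a further KO peak, of 2 and 11 kb, that sg-Ctrl lacked and that covered 1.37% and 4.98% of the gene. The region of H2-Ea-ps and H2-Eb2 was 6 kb in sg-Ctrl and 19 kb in KO, and that of H2-Eb1 and H2-Eb2 was 13 and 14 kb and met H2-Eb1 in KO alone. H2-Ea-ps lay wholly inside its KO peak, whereas the KO peak covered 6.24% of H2-Eb1, at the edge of a peak that sg-Ctrl also had.

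At Ciita no sg-Ctrl peak was listed. The KO peak, chr16:10474001-10501000, was 27 kb long and had 1727 reads (1647 to 1810) against 172 IgG reads, a fold of 3.75. It contains the weak H3K4me3 peak, which lies at a listed start of Ciita inside the longest listed gene body, of 47.5 kb. The 23.9 scaled reads per kb of this H3K27me3 peak lie above 11.95% of the peaks that sg-Ctrl lists, so it would have ranked low there. Where a library lists no peak, its level is not known.

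**Figure D5:**
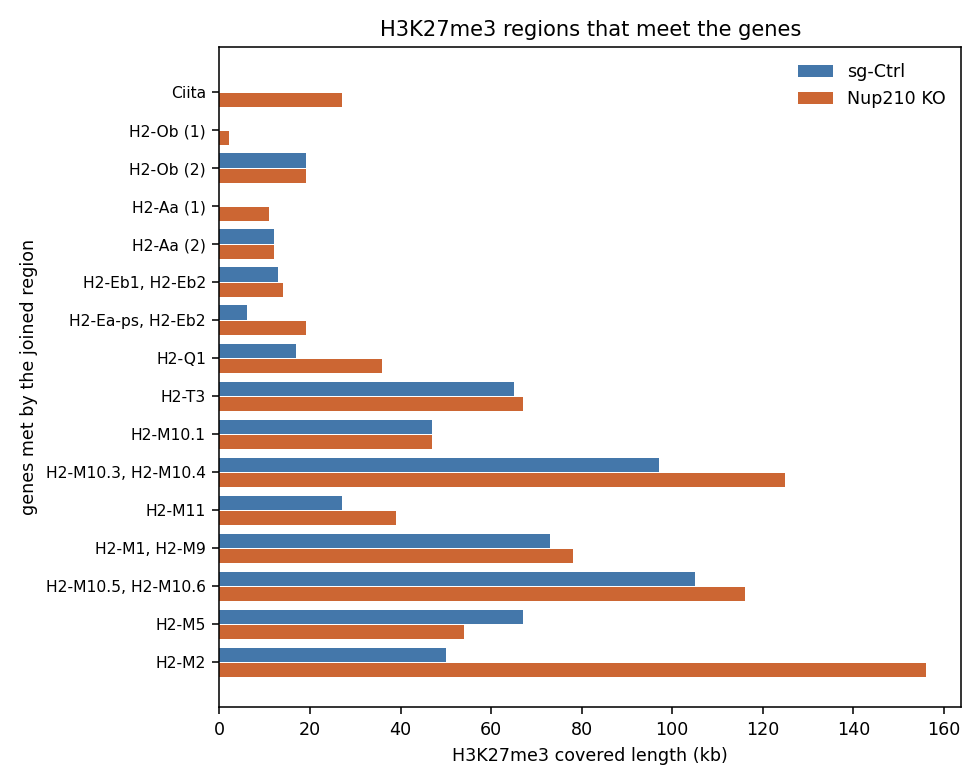
Length in kb covered by H3K27me3 peaks in sg-Ctrl (blue) and Nup210 KO (orange) for the 16 joined regions that meet genes of the set, in genome order. The region of H2-M2 goes from 50 to 156 kb, and 3 regions, at Ciita, H2-Ob and H2-Aa, have no sg-Ctrl peak.

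NUP210 and NPC peaks were few at these genes. NUP210 was listed for 3 of 46, beside 33.9% of all genes, and NPC for 3, beside 30.8%. The genes are short, with a median of 4.29 kb beside 18.3 kb for all genes and 37.2 kb for genes with NUP210. Of the 38 under 10 kb, 1 had NUP210 and 1 had NPC, beside 24.0% and 20.0% of all genes of that length. H2-M3 had a NUP210 fold over IgG of 1.32 with a deposited FDR of 8.7e-07. That peak, 13 kb long, covered only the last 11.4% of the gene. Erap1 had 2 NUP210 peaks, of fold 1.03 and 1.09, and Cd274 had 2, of fold 0.96 and 1.06, all with an FDR above 0.05. For NPC, H2-M11 had a fold of 1.53, Erap1 1.28 and Cd274 0.98. Over the whole lists, 31.0% of NUP210 peaks and 48.3% of NPC peaks had an FDR above 0.05, so a listed peak is not always an enriched one.

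Of 42 other genes of the pathway, 33 had H3K4me3 in both lists and 9 in neither. Their median log2 ratio was -0.53, and 3 (9.09%) were at or below 0.5 times sg-Ctrl, beside 9.66% of all genes, with 0 at or above 2 times, beside 0.525%. The count of lower genes was thus near the background, and the values of the 3 are given as a description. Cd1d1, which presents lipids to natural killer T cells, had 563 sg-Ctrl reads and 76 KO reads with 0 IgG reads in both, giving a log2 ratio of -2.97 (-3.34 to -2.62). The gene also carried H3K27me3 in both libraries. Nfyb, a subunit of the factor that binds the Y box, had 3374 and 1728 reads and a log2 ratio of -1.16 (-1.24 to -1.07). Psmb7, the constitutive subunit that Psmb10 replaces, had 2677 and 2824 reads over 3.0 and 5.2 kb, a log2 ratio of -1.06 (-1.14 to -0.98) per kb and -0.27 in total reads. H3K27me3 was listed for 6 of the 42 in each library (26.8% of all genes in sg-Ctrl and 27.6% in KO), NUP210 for 13 (33.9%) and NPC for 11 (30.8%).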

How the data were processed

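The 6 deposited ChIP-seq peak lists of 4T1 cells were used, 1 library each: both histone marks in sg-Ctrl and in Nup210 KO, and NUP210 and NPC in sg-Ctrl. The authors called peaks against IgG with SICER, in windows of 200 bp (H3K4me3) or 1000 bp (broad marks) (not stated for NPC), and joined them to gene bodies or, for H3K4me3, to 4 kb on either side of the start. The submitters' notes name Bowtie2 and the builds mm9, mm10 and NCBIM37 without a role; 85.9% of 5853 gene positions lay within 50 bp of GRCm38.p6, so coordinates are given as GRCm38. The deposited columns hold read counts of ChIP and IgG, p-values with their FDR, the fold ratio over IgG and the overlap in bp.

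Library size relative to IgG was recovered from counts and folds, and ranged from 0.606 to 2.68. The lists held 5866175 to 26811061 reads in distinct peaks. For each gene the H3K4me3 peak with the most scaled reads per kb was compared. With 1 library per condition no test was made. Reads have exact Poisson and log2 ratios exact binomial (Clopper-Pearson) 95% intervals, which cover counting error only. A gene was counted as lower or higher at 0.5 or 2 times sg-Ctrl. The code was tested on simulated data. The alternatives were scaling by shared peaks, total reads, the deposited fold, subtraction of IgG, other choices of peak, and stricter FDR, fold, overlap and read limits. Of these, the peak nearest the start and total reads of all peaks were added after seeing the data.

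Named were all genes of the set with a peak, pathway genes past 2-fold and at most 5 neighbours. The members and lists were chosen with earlier results of these data known. The 4 RNA-seq samples and 3 IgG libraries were not analysed here. Python 3.11.15, pandas 2.3.3 and scipy 1.17.1 were used.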

Additional observations from a re-analysis of the deposited data

How the results depend on the processing

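The 26 genes kept H3K4me3 in both lists under the stricter FDR and fold limits. Scaling by reads in shared peaks moved the median of all genes from -0.50 to -0.08 and that of the 26 genes to -0.00039, with 0 genes at or below 0.5 times sg-Ctrl, 1 at or above 2 times (Ciita) and 1 pathway gene at or below 0.5 times. Total reads of the chosen peak turned the median of the 26 genes to 0.16, 0.48 above that of all genes, and H2-T23 to 0.0729, with 0 genes lower and 2 higher (H2-D1 and H2-L). Total reads of all peaks, an alternative added after seeing the data, gave 0.12, H2-T23 again 0.0729, and 0 lower; the construction of these measures, which do not divide by peak width, sets this turn. The deposited fold gave 3 lower genes (H2-Q6, H2-Q8, Psmb10), and adding all peaks per kb gave 2 (H2-T23, Cd274). Of 12 settings, 5 (scaling by shared peaks and the FDR, fold, overlap and read limits) left the genes' values unchanged relative to each other, so they say nothing of stability. Under the 7 that moved some of them, of which the nearest and the widest peak moved 3 genes each, 13 of 26 genes kept their side of the median of all genes, 11 above it (Ciita, H2-K1, H2-K2, H2-Ke2, H2-M3, H2-Q4, Psmb8, Psmb9, Tap1, Tap2 and Tapbp) and 2 below it (H2-DMa and H2-T10). An FDR of at most 0.01 left 1 gene with NUP210, and a fold of at least 2 left 0 with NUP210 and 0 with NPC. Where the peak had to cover at least 10% of the gene body, H3K27me3 was listed for 12 genes in sg-Ctrl and 17 in KO. No paired analysis was possible because each ChIP condition has 1 library, and the RNA-seq samples that share replicate numbers were not analysed here. Depth limits the values of Ciita, H2-Q5, H2-Q6 and H2-Q7, which rest on the fewest reads.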
